A study of Mus musculus with 18 samples.

Results

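The major urinary protein (Mup) genes Mup3, Mup7, Mup14, Mup17 and Mup20 were followed through liver, epididymal white adipose tissue (eWAT) and quadriceps muscle of mice on a control diet (CON) or a high-salt diet (HSD). They are 5 of the 21899 genes listed and 5 of the 22 genes listed whose name is Mup with a number. They were chosen by name, because their expression values in eWAT were lower in HSD than in CON mice, so their diet difference in eWAT is given as a description and no test is attached to it. The contrast used for the choice did not involve liver or muscle. Its CON eWAT values do enter the ratios between members in fat. Tests of those ratios are therefore not independent of the choice.

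All mice were male wild-type C57BL/6 animals aged 18 weeks. HSD mice had received the high-salt diet for 12 weeks. Per the study, they also had saline to drink, whereas CON mice had chow and tap water. The contrast called diet here thus covers both food and drink. Each tissue had 3 CON and 3 HSD libraries of total RNA depleted of ribosomal RNA, 18 in all. A library is named here by the code of its mouse and a letter for its tissue (L for liver, W for eWAT, M for muscle), so that CON16L and CON16W carry the same mouse code. Expression was given as FPKM, the fragments of a gene divided by its length and by the total of the library, and levels of different genes are compared only on this length-scaled measure.

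Major urinary proteins are small lipocalins, barrel-shaped carriers of fatty and volatile molecules. In mice they are made mainly by hepatocytes, secreted into blood and passed into urine, where they bind and slowly release pheromones. Their synthesis in liver is higher in males and depends on growth hormone acting through the transcription factor STAT5. The gene family lies in 1 cluster on chromosome 4. Mup20 encodes darcin, a urinary protein that itself acts as a male pheromone. Mup3 is one of the more divergent members of the cluster, and Mup7, Mup14 and Mup17 belong to its large group of near-identical copies.

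All members are on the minus strand of chromosome 4 in build GRCm38 (mm10), and the representative transcript of each has 7 exons. From the proximal end of the cluster, Mup7 spans positions 60066469 to 60070475, Mup14 61300023 to 61304000, Mup17 61591929 to 61595871, Mup20 62050234 to 62054158 and Mup3 62083476 to 62087342. Their coding sequences are 540 bases long in Mup7, Mup14 and Mup17, 543 in Mup20 and 552 in Mup3. The stretch below was picked because the 5 genes differ most in it, so it overstates their difference over the whole coding sequence. It holds 60 coding bases, with capitals at the 20 positions where the genes do not all have the same base:
Mup3, chr4:62085960-62086019: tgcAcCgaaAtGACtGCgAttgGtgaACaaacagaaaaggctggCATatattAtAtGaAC
Mup20, chr4:62052637-62052696: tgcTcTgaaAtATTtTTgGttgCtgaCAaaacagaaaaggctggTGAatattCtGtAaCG
Mup7, chr4:60068902-60068961: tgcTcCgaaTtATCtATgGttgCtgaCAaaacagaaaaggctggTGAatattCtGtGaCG
Mup14, chr4:61302481-61302540: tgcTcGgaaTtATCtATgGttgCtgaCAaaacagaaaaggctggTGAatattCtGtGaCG
Mup17, chr4:61594352-61594411: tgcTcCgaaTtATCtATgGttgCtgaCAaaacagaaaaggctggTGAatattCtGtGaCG

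In that stretch, Mup7 and Mup17 have the same sequence. A second stretch was picked in the same way for Mup7, Mup14 and Mup17. With capitals at the 4 positions where they are not all alike, it is one of the places where a read can tell these copies apart:
Mup7, chr4:60069771-60069830: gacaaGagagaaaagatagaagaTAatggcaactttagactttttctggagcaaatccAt
Mup14, chr4:61303360-61303419: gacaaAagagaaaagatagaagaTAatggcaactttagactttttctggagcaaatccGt
Mup17, chr4:61595231-61595290: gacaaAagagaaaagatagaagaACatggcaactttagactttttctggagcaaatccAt

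Over the whole coding sequence, Mup7 and Mup14 differ at 5 of 540 bases (99.1% identity), Mup7 and Mup17 at 7 (98.7%) and Mup14 and Mup17 at 8 (98.5%). Mup20 is 90.1% to 91.0% identical to these 3 genes and 86.6% to Mup3, and Mup3 is 82.1% to 83.0% identical to them. These differences set how well each gene can be counted. Of all runs of 150 bases (the read length) in a member's transcript, 100% occur in no other annotated gene for Mup3, 68.9% for Mup20, 59.6% for Mup17, 22.5% for Mup7 and 21.01% for Mup14. Values of Mup7 and Mup14, and to a lesser degree of Mup17 and Mup20, are therefore uncertain wherever reads of a near-identical copy could have been assigned to them.

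The members were also compared at their starts of transcription. In RefSeq's windows from 250 bases before to 50 after each annotated start (GRCm38.p6), which hold 4 of the members, the letters TATATAAGG were found on the gene's own or the opposite strand in 101 of 32851 windows (0.307%), in 11 of 14 Mup windows and in those of Mup3, Mup14 and Mup17. The window of Mup7 does not hold them, and Mup20 has no window among those used. Counted from RefSeq's start, the letters begin at −11 in Mup3, 13 in Mup14 and −25 in Mup17. By the gene positions given above, they lie inside each of these genes, so the bases shown are not all upstream sequence. The 100 bases that end with these letters, shown in capitals, are given for the 3 members that have them, since few windows do:
Mup3, chr4:62087320-62087419: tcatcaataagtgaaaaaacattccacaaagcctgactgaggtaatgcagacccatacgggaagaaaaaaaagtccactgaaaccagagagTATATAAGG
Mup14, chr4:61303978-61304077: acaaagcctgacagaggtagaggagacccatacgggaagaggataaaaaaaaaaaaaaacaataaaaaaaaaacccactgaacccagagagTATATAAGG
Mup17, chr4:61595849-61595948: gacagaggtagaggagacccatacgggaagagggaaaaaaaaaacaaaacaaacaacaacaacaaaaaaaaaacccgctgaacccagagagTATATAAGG

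TTCNNNGAA, the letters of a STAT5 site, were in 8.30% of all such windows on either strand and in 0 of the 14 Mup windows, which says only that these letters are not within those windows.

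Some libraries stood apart from the others of their group, and the results that rest on them are given with and without them. The share of fragments on mitochondrially encoded genes ran from 15.4% to 60.8% over the 6 liver libraries. CON16L held skeletal muscle transcripts (Acta1, the actin of skeletal muscle, at 1994 FPKM against at most 1.37 in the other livers). HS3W held epididymal transcripts (Gpx5, a glutathione peroxidase of the epididymis, at 6610 FPKM against at most 0.613 in the other eWAT libraries), and its Adipoq, the adipocyte hormone adiponectin, was 692 FPKM against 1937 to 2129 in the others. Defining markers of each labelled tissue were present: Alb was at 5154 to 38081 FPKM in liver, and Ckm, the creatine kinase of muscle, at 4328 to 4763 FPKM in muscle. The study's own comparisons did not use CON16L, HS5L and HS5W. Between 7628071 and 16637489 fragments stood behind a library.

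In liver, Mup transcripts were among the most abundant of all. Mup3 was 3847, 13648 and 12263 FPKM in CON14L, CON16L and CON72L, and 13293, 16901 and 8042 FPKM in HS2L, HS4L and HS5L. It ranked between 6 and 11 among the 21899 genes of each liver library. Mup20 was 1839, 9306 and 7558 FPKM in the CON livers and 7755, 7239 and 3919 FPKM in the HSD livers. Mup7 was 515, 4916 and 4327 FPKM in the CON livers and 5036, 6072 and 1236 FPKM in the HSD livers. For these 3 genes, CON14L was the lowest library and HS5L the next, and the diets overlapped. Mup14 was 259, 863 and 1140 FPKM in the CON livers and 1033, 1146 and 336 FPKM in the HSD livers, with the same low pair of libraries. Mup17 was different: it was 1087, 2995 and 2394 FPKM in the CON livers and 757, 853 and 455 FPKM in the HSD livers, so that every HSD library lay below every CON library.

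The order of the mean levels in CON liver was Mup3 (9919 ± 5304 FPKM, SD, n = 3), Mup20 (6234 ± 3905), Mup7 (3253 ± 2389), Mup17 (2159 ± 976) and Mup14 (754 ± 451). CON14L was the lowest CON liver for every member, and within a library the order was steadier than these SDs. In all 3 CON livers, Mup20 was below Mup3 (ratio 0.478 to 0.682) and above Mup7 (1.75 to 3.57), and Mup17 was above Mup14 (2.10 to 4.19). Only Mup7 and Mup17 changed places, with a ratio of Mup17 to Mup7 of 2.11 in CON14L and of 0.609 and 0.553 in CON16L and CON72L. In HSD liver, Mup17 was the lowest (688 ± 207 FPKM), next to Mup14 (839 ± 439). The 5 genes made up 77.0% to 86.4% of the FPKM of all Mup genes in CON liver and 85.4% to 89.5% in HSD liver.

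**Figure D1:**
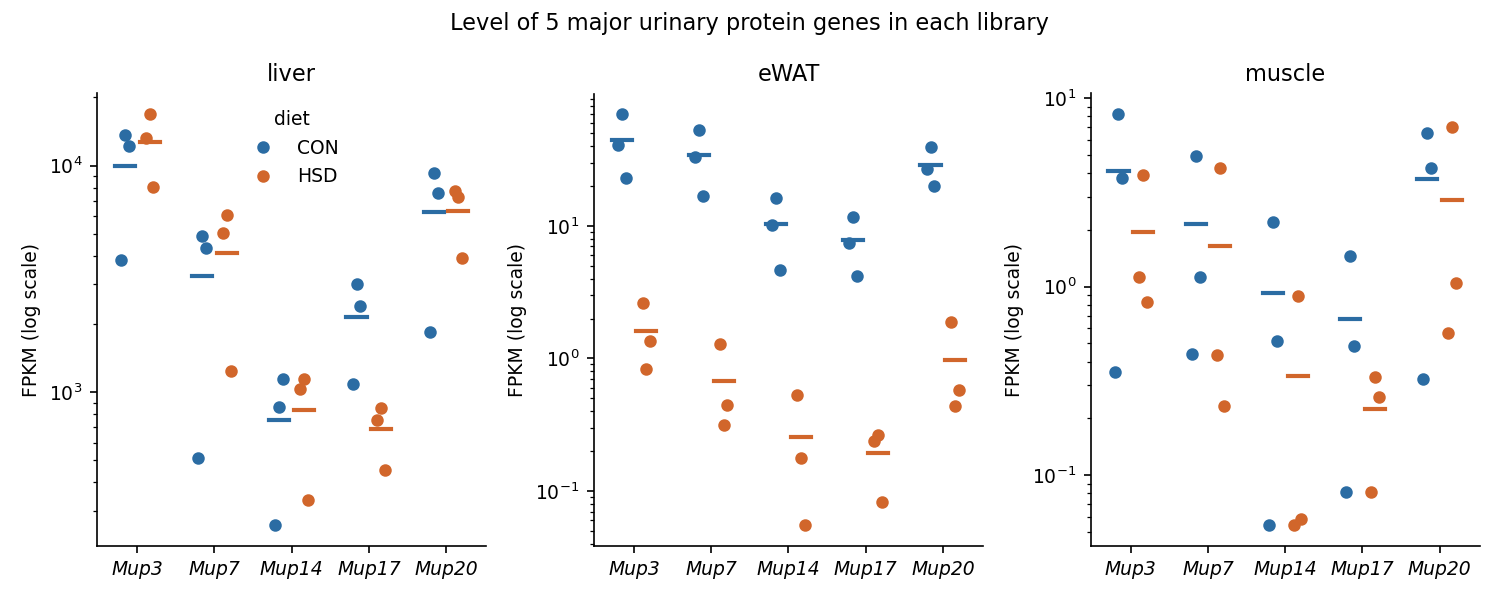
FPKM (log scale) of the 5 genes in each library of liver, eWAT and muscle, with CON in blue and HSD in orange; points are libraries and bars are means of 3. The diets overlap in liver except for Mup17, do not overlap in eWAT and overlap in muscle.

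The level of the members in liver moved with the mitochondrial share. Summed over the 5 genes, it was 32211, 27873, 31729, 27681, 13989 and 7547 FPKM in HS4L, HS2L, CON16L, CON72L, HS5L and CON14L, whose mitochondrial shares were 15.4%, 16.3%, 25.7%, 37.8%, 44.4% and 60.8%. The libraries with the 2 highest shares had the 2 lowest sums, and 1 of them is CON and the other HSD. Relative to Alb, which encodes the main protein of plasma, the sum was 1.46, 0.915 and 1.06 in CON14L, CON16L and CON72L and 0.808, 0.846 and 0.955 in HS2L, HS4L and HS5L, a much narrower range. The part of the mitochondrial share in the liver values was not tested.

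HSD and CON were compared in liver by limma on log2(FPKM + 0.5), a scale that understates changes of weakly expressed genes, with Benjamini-Hochberg adjustment over the 10317 genes whose FPKM averaged 0.5 or more. A call needed both an adjusted p under 0.05 and a log2 fold change of 1 or more in size. No member was called (0 of 5), and 0% of all tested genes were. At an unadjusted p under 0.05, 592 genes passed in limma, 5.74% of those tested, among them 1 of the 5 members. That member was Mup17, with a log2 fold change of −1.58 (SE 0.55, unadjusted p = 0.0231, limma adjusted p = 0.764). Groups without overlap in that direction, every HSD library below every CON library, were found for 1 of 5 members and for 3.47% of all tested genes, and in the other direction for 0 of 5 members and 8.62% of genes. With limma's arrayWeights, which give less weight to libraries that stray from their group, the log2 fold change of Mup17 was −1.65 at an adjusted p of 4.06e-05, and 926 genes were called in all. In liver this weighting did not converge and put nearly all weight on HS2L (35.4) and CON72L (8.19), against 0.165 to 0.428 for the other 4 libraries, so its p-values and calls are not relied on. Over the other alternatives the log2 fold change of Mup17 ran from −2.01 to −1.005 and its limma adjusted p from 0.346 to 1.00.

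The other members gave small and uncertain differences in liver. The log2 fold change was 0.50 for Mup3 (SE 0.65, limma adjusted p = 0.821), 0.60 for Mup7 (SE 1.03, adjusted p = 0.872), 0.21 for Mup14 (SE 0.74, adjusted p = 0.937) and 0.26 for Mup20 (SE 0.72, adjusted p = 0.921). All 4 turned negative when CON14L, the library with the most mitochondrial fragments, was left out (−0.09, −0.46, −0.43 and −0.47). When mitochondrially encoded genes were left out and FPKM rescaled, the median log2 fold change of all tested genes moved from 0.13 to −0.20, Mup14 and Mup20 turned to −0.16 and −0.12, and Mup17 was at −1.95.

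Because every value within a library is divided by the same total, ratios between members do not depend on that total. The ratio of Mup17 to Mup3 was 0.283, 0.219 and 0.195 in CON14L, CON16L and CON72L, and 0.0570, 0.0505 and 0.0566 in HS2L, HS4L and HS5L. Each is carried by at least 3609 fragments of Mup17. The spread within a diet was small, and on average the ratio was 4.20-fold higher in CON than in HSD liver. Mup17 was 2.34% to 2.78% of the FPKM of all Mup genes in HSD liver and 7.37% to 11.1% in CON liver. All 4 ratios of Mup17 to another member lay lower in every HSD than in every CON liver, with mean log2 differences from −2.17 (to Mup7) to −1.79 (to Mup14). None of the 6 ratios among the other 4 members separated the diets. This pattern was picked out after the values were seen and is given without a test. For orientation, 3.43% of 10316 genes had a ratio to Mup3 that was lower in every HSD than in every CON liver. Another 1.33% had one that was higher. Other Mup genes shared that lower ratio in every HSD liver: Mup1, Mup9, Mup12, Mup13, Mup16 and Mup21. Mup22 had a higher ratio in every HSD liver, and the rest of those tested overlapped. Mup16, for example, was 0.274% to 0.338% of the FPKM of all Mup genes in HSD and 0.451% to 0.731% in CON liver. A lower ratio to Mup3 is therefore not particular to Mup17.

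The 14 other Mup genes tested in liver spread to both sides, and 0 were called (1 at an unadjusted p under 0.05). Mup9 lay nearest to Mup17, at 14.95 to 26.2 FPKM in CON and 4.37 to 7.49 FPKM in HSD liver (log2 fold change −1.56, SE 0.33, unadjusted p = 0.00195, limma adjusted p = 0.764). Mup11, the most abundant of these genes in CON liver, was 1380 to 1755 FPKM in CON and 773 to 1139 FPKM in HSD liver (−0.73, SE 0.42, adjusted p = 0.764). Both had every HSD library below every CON library, as 3.47% of all tested genes did. Mup22 pointed the other way, with 60.8 to 345 FPKM in CON and 326 to 802 FPKM in HSD liver (1.59, SE 0.74, adjusted p = 0.764), and its groups overlapped. No run of 150 bases in Mup22 (0%) is its own, and 23.1% and 21.8% of those in Mup9 and Mup11 are. The log2 fold changes of the others were −0.87 for Mup13, −0.72 for Mup16, −0.34 for Mup18, −0.23 for Mup1, −0.13 for Mup15, −0.13 for Mup21, −0.11 for Mup12, 0.04 for Mup19, 0.05 for Mup2, 0.52 for Mup8 and 0.72 for Mup10, with standard errors between 0.47 and 0.91. Mup4, Mup5 and Mup6 had too few fragments in liver to be tested. The median over these 14 genes was −0.13, beside 0.13 over all tested genes.

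**Figure D2:**
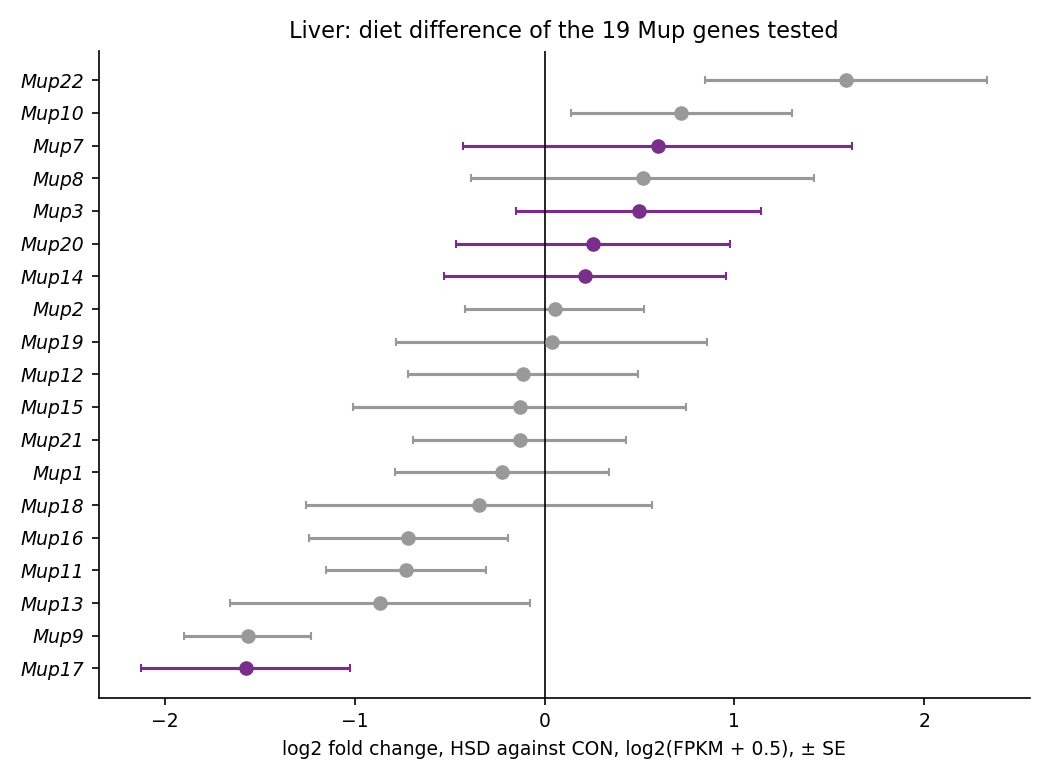
Log2 fold change of HSD against CON liver with its SE (limma, log2(FPKM + 0.5), 3 libraries a diet) for the 19 Mup genes tested, members in purple and the others in grey. Mup17 and Mup9 lie lowest, at −1.58 and −1.56, Mup22 lies highest at 1.59, and the other members lie between 0.21 and 0.60.

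Genes of the growth hormone to STAT5 pathway were described beside the members. Of 17 listed genes, 15 were tested in liver and 0 were called by limma (1 at an unadjusted p under 0.05). In eWAT and muscle, 15 and 14 were tested and 0 called, with 3 in each at an unadjusted p under 0.05. The growth hormone receptor Ghr was 20.3 to 32.9 FPKM in CON and 19.98 to 55.6 FPKM in HSD liver (log2 fold change 0.37, SE 0.45, limma adjusted p = 0.81). The signal transducers Stat5a and Stat5b were at 0.20 (SE 0.30) and 0.52 (SE 0.25), and Igf1, the growth factor that growth hormone induces in liver, was at 0.23 (SE 0.35). The feedback inhibitors Socs2 and Cish were at −0.07 (SE 0.33) and −0.82 (SE 0.55), and Zhx2, a regulator of several liver genes, at 0.06 (SE 0.31). The largest differences of the list, besides that of Cish, were those of Hnf4a, a hepatocyte transcription factor (0.82, SE 0.33), and Igfals, which stabilises IGF1 in plasma (0.56, SE 0.60). The median of the list was 0.23, beside 0.13 for all tested genes.

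Liver genes known for a higher level in males, as the Mup genes are, split to both sides. All 17 on the list were tested, 0 were called (2 at an unadjusted p under 0.05), 9 had a lower and 8 a higher mean in HSD, and their median was −0.13. At the low end were Selenbp2, a selenium-binding protein of liver, with 637, 390 and 338 FPKM in CON14L, CON16L and CON72L and 72.8, 174 and 114 FPKM in HS2L, HS4L and HS5L (log2 fold change −1.95, SE 0.49, unadjusted p = 0.00458, limma adjusted p = 0.764), and Moxd1 (−2.39, SE 0.72, adjusted p = 0.764), which was at most 6.31 FPKM. These 2 genes, like Mup17 and 3.47% of all tested genes, had every HSD library below every CON library. At the high end were Cyp7b1, an oxysterol hydroxylase (1.09, SE 0.69), and C8b, a complement component (0.86, SE 0.59). Of 17 female-biased genes, 5 reached the level for testing and 0 were called (0 also at an unadjusted p under 0.05), with Acot3 (0.57), Cyp17a1 (0.56), Cyp2c40 (−0.46) and Cyp2c69 (−0.46) at the ends.

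Other lipocalins and carriers of small molecules were given the same comparison. Of 10 listed genes, 9 were tested in liver and 0 were called (1 at an unadjusted p under 0.05). Apom, which carries sphingolipids on lipoproteins, was 13.2 to 34.5 FPKM in CON and 27.0 to 85.8 FPKM in HSD liver (log2 fold change 1.37, SE 0.56, limma adjusted p = 0.764). Rbp4, the retinol carrier of plasma, was at 1.35 (SE 0.80), Obp2a, an odorant-binding protein, at −0.39 (SE 0.52) and Ptgds, a prostaglandin synthase of the lipocalin family, at −1.78 (SE 0.99). Of the 26 hepatocyte markers, 0 were called (1 at an unadjusted p under 0.05) and 25 had a higher mean in HSD liver (median 0.96), from −0.28 for Apoa1 and 0.05 for Itih3 to 1.32 for Trf and 1.45 for Cyp3a11.

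In eWAT, the members were present at far lower levels than in liver, and much lower in HSD than in CON mice. Mup3 was 40.7, 69.7 and 22.8 FPKM in CON16W, CON71W and CON72W and 2.61, 0.837 and 1.36 FPKM in HS2W, HS3W and HS5W. Mup7 was 33.3, 52.8 and 16.9 FPKM in the CON libraries and 1.28, 0.315 and 0.444 FPKM in the HSD libraries. Mup20 was 26.7, 39.3 and 19.9 FPKM in CON and 1.895, 0.438 and 0.576 FPKM in HSD. In each of these genes CON71W was the highest library and CON72W the lowest of CON, and no HSD library came near them. Mup14 was 10.1, 16.3 and 4.65 FPKM in CON and 0.530, 0.176 and 0.0553 FPKM in HSD. Mup17 was 7.47, 11.6 and 4.21 FPKM in CON and 0.237, 0.263 and 0.0824 FPKM in HSD. All 5 members had every HSD library below every CON library, as 12.4% of the 13740 genes tested in eWAT did (0 of 5 lay above, as 16.2% of genes did). Since the members were chosen on this contrast, nothing is read from that count. In bulk tissue, fewer cells of a type and less RNA per cell cannot be told apart.

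The fragments behind these values were few in HSD fat. They numbered 2231 in CON and 68 in HSD eWAT for Mup3, 1670 and 28 for Mup7, 1257 and 36 for Mup20, 672 and 14 for Mup14, and 339 and 7 for Mup17. Scaled by library totals, the pooled level was 26.8-fold higher in CON for Mup3 (95% exact interval 21.03 to 34.6), 28.5-fold for Mup20 (20.5 to 40.9), 39.2-fold for Mup14 (23.2 to 72.04), 39.5-fold for Mup17 (18.97 to 99.05) and 48.7-fold for Mup7 (33.6 to 73.5). The intervals of the 5 members overlap one another, and they cover counting error only. Such overlap does not show that the members changed alike, and the ratio of Mup7 to Mup3 by diet is given below. On the log2(FPKM + 0.5) scale the differences were −4.36, −4.83, −4.39, −3.74 and −3.48 for Mup3, Mup7, Mup20, Mup14 and Mup17. Of the 9 other Mup genes tested in eWAT, 7 had every HSD library below every CON library, beside 12.4% of all tested genes. The other 2, Mup4 and Mup6, were listed at 0 in CON and reached 36.3 and 13.5 FPKM in HS3W, the library with epididymal transcripts. In HS3W the 5 members were 3.82% of the FPKM of all Mup genes, against 80.0% to 92.4% in the other eWAT libraries.

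The levels in fat were set against those in liver. As a percentage of the mean CON liver level, the median of the 5 members was 0.428% in CON16W, 0.703% in CON71W and 0.319% in CON72W, and 0.0304%, 0.00968% and 0.00925% in HS2W, HS3W and HS5W. Over all values of the 5 members in the 3 CON libraries the median was 0.538%. Over CON16W and CON72W, the libraries whose mouse code also has a liver, it was 0.419% on that base and 0.293% when the liver of the same mouse was the base. The 26 hepatocyte markers, taken the same way, had medians of 0.706%, 1.11% and 0.417% in the CON libraries and 0.0641%, 0.0334% and 0.0375% in the HSD libraries. Members and markers thus followed the same order over the CON libraries, and both were lower in HSD. Of 25 hepatocyte markers tested in eWAT, 24 had every HSD library below every CON library, beside 12.4% of all tested genes. The median log2 fold change of the markers was −2.46 beside −4.36 for the members. The log2(FPKM + 0.5) scale used here understates changes of weakly expressed genes. The median FPKM of the 26 markers was 5.26, 9.89 and 3.38 in CON16W, CON71W and CON72W. In HS2W, HS3W and HS5W it was 0.525, 0.380 and 0.346. Alb was 108, 167 and 53.9 FPKM in CON16W, CON71W and CON72W and 7.85, 3.30 and 5.87 FPKM in HS2W, HS3W and HS5W. The markers Cyp2e1 and Trf were as high in CON fat as in CON liver or higher (178% and 116% of the liver level in CON71W). The part of liver RNA in the values of the members in fat was not tested.

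**Figure D3:**
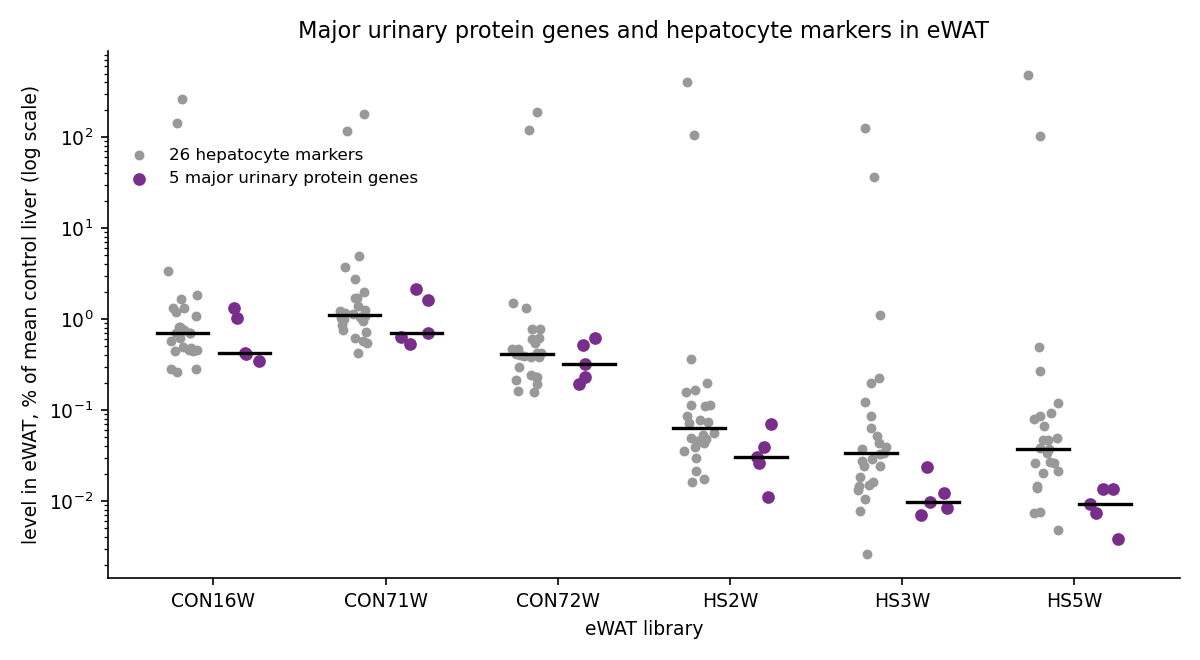
Level in each eWAT library as a percentage of the mean CON liver level (log scale) for the 26 hepatocyte markers in grey and the 5 members in purple, with medians as black bars; markers at 0 are not drawn but count in the median. The medians of the members are 0.319% to 0.703% in CON and at most 0.0304% in HSD libraries, below those of the markers in each library.

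Markers of other cell types were examined in the same fat libraries. Of 11 adipocyte markers, 9 had a lower mean in HSD and 3 had every HSD library below every CON library, beside 12.4% of all tested genes. Their median log2 fold change was −0.53, beside 0.08 for all tested genes, and 0 were called by limma (1 at an unadjusted p under 0.05). Adipocyte markers summed to 17812.6 to 18992.6 FPKM in CON. The sums were higher in HS2W and HS5W (23272.8 and 24538.5 FPKM) and lower in HS3W (7602.1 FPKM). Skeletal muscle markers summed to 8.34 to 17.9 FPKM in CON and 31.3 to 46.7 FPKM in HSD eWAT, led by Acta1 (5.79 to 11.4 and 17.7 to 33.5 FPKM). Epididymal markers summed to 2.96 to 10.8 FPKM in CON, 15.5 and 7.89 FPKM in HS2W and HS5W, and 25606 FPKM in HS3W, led by Gpx5. Markers of male germ cells summed to 0.327 to 56.0 FPKM in CON and 39.7 to 640 FPKM in HSD, led by Prm2, a sperm protamine, at 155 FPKM in HS2W. Among salivary and pancreatic acinar genes, Amy1, an amylase, was highest, at 80.7 to 94.9 FPKM in CON and 31.7 to 83.3 FPKM in HSD. With any 1 eWAT library left out, HS3W included, the log2 differences of the members were between −5.26 and −3.15.

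The ratios between members in CON fat were compared with those in CON liver. The ratio of Mup7 to Mup3 was 0.819, 0.758 and 0.741 in CON16W, CON71W and CON72W, and 0.134, 0.360 and 0.353 in CON14L, CON16L and CON72L. The ratio of Mup14 to Mup3 was 0.248, 0.234 and 0.204 in CON eWAT and 0.0674, 0.0633 and 0.0930 in CON liver. Relative to Mup3, both genes were thus higher in fat than in any CON liver, by 1.59 and 1.63 on the log2 scale. The ratio of Mup17 to Mup3 was 0.183, 0.166 and 0.184 in CON eWAT, slightly under the 0.195 to 0.283 of CON liver (log2 difference −0.37). The ratio of Mup20 to Mup3 was 0.564 to 0.870 in CON eWAT and 0.478 to 0.682 in CON liver, which overlap.

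Over the 10 pairs of members, 8 ratios did not overlap between CON eWAT and CON liver (80%). Such a lack of overlap is common between these tissues: it was found for 66.2% of all pairs of genes that were above 0 in these 6 libraries and averaged 0.5 FPKM or more in each tissue, and for 56.9% of the 325 pairs of hepatocyte markers. An exact 2-sided permutation test of 3 against 3 libraries cannot go below p = 0.1, which all 8 reached (0.125 after adjustment over the 10 pairs), so none passed a threshold of 0.05. Mice CON16 and CON72 gave a library to both tissues, so the libraries are not all independent, which the test ignores. The CON fat values are also part of the contrast on which the members were chosen. The mean log2 differences of Mup17 to Mup14 (−2.0) and of Mup17 to Mup7 (−1.95) were the largest of the 10 with these 3 livers. The second rests on CON14L and was −1.33 without it. With the 6 livers of both diets they were −1.11 and −0.87, and fat and liver overlapped in both. The ratio of Mup14 to Mup7 overlapped between the tissues (log2 difference 0.05, exact permutation p = 0.9).

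With the 6 livers, 4 of the 10 ratios (40%) lay outside the liver range, beside 56.9% of all pairs of genes and 44% of those of hepatocyte markers, so the members' share is not above the background. They were Mup7 to Mup3, Mup14 to Mup3, Mup20 to Mup7 and Mup20 to Mup14 (log2 differences 1.54, 1.77, −1.19 and −1.43). Their exact 2-sided permutation p was 0.0238, the smallest this design allows, and 0.0595 after adjustment over the 10 pairs. That test pools livers of both diets against CON fat alone, and it too ignores that CON16 and CON72 are in both tissues. The ratio of Mup17 to Mup3 in fat lay between those of CON and HSD liver. In the 2 mice with a code in both tissues, CON16 and CON72, the ratio of Mup7 to Mup3 was higher in eWAT than in liver by 1.18 and 1.07 on the log2 scale, and that of Mup14 to Mup3 by 1.97 and 1.13. Within each CON eWAT library, Mup7 and Mup14 were at a higher percentage of their liver level than the other members: 0.521% to 1.62% for Mup7 and 0.617% to 2.16% for Mup14, against 0.195% to 0.703% for the other 3. In CON71W, Mup7 (1.62%) lay between the quartiles of the hepatocyte markers (0.876% and 1.71%) and Mup14 (2.16%) above them. Among the other Mup genes, Mup15 (0.486% to 1.54%) and Mup19 (0.758% to 1.77%) reached similar percentages in CON eWAT. The median of 14 other Mup genes was 0.464%, 0.591% and 0.196% in CON16W, CON71W and CON72W. Of the members, Mup7 and Mup14 have the smallest share of reads of their own, and the part of read assignment in these ratios was not tested.

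**Figure D4:**
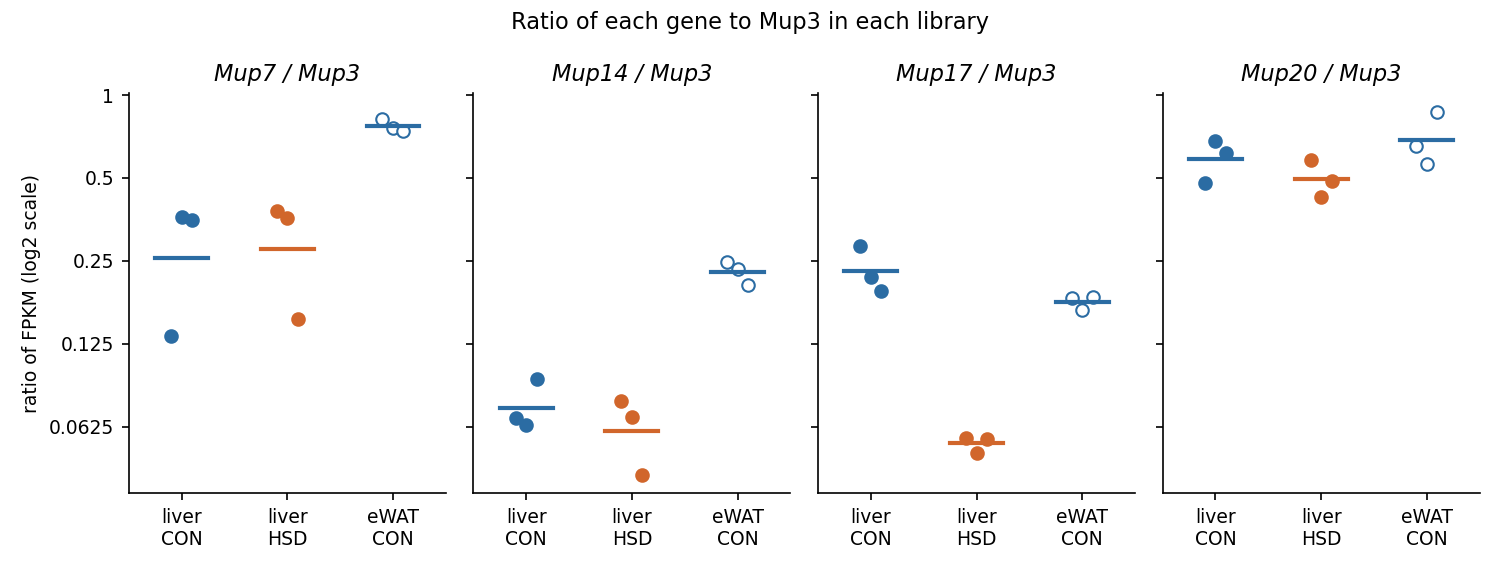
Ratio of the FPKM of Mup7, Mup14, Mup17 and Mup20 to that of Mup3 (log2 scale) in CON liver, HSD liver and CON eWAT; points are libraries and bars are geometric means of 3. Mup7 and Mup14 are higher against Mup3 in eWAT than in any liver, and Mup17 is 0.0505 to 0.0570 of Mup3 in HSD liver against 0.195 to 0.283 in CON liver.

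In HSD fat, ratios rested on few fragments. The pooled ratio of Mup7 to Mup3 was 0.426 (95% exact interval 0.264 to 0.670) beside 0.774 (0.726 to 0.825) in CON fat. The pooled ratio of Mup14 to Mup3 was 0.159 (0.0826 to 0.286) beside 0.233 (0.213 to 0.254), and that of Mup17 to Mup3 0.119 (0.0460 to 0.258) beside 0.175 (0.156 to 0.196). By library, the ratio of Mup7 to Mup3 was 0.326 to 0.490 in HSD and 0.741 to 0.819 in CON fat, which do not overlap. The HSD values rest on 18, 4 and 6 fragments of Mup7 in HS2W, HS3W and HS5W. Their 95% exact intervals, 0.263 to 0.879, 0.0873 to 1.27 and 0.107 to 0.850, each cover the CON values. The ratios of Mup14, Mup17 and Mup20 to Mup3 overlapped between the diets. The intervals cover counting error only. The members were chosen on this contrast, so these values are a description with no test.

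In muscle, the members were at low levels, and the diets overlapped for each of them. Mup3 was 0.353, 8.22 and 3.77 FPKM in CON16M, CON71M and CON72M and 1.13, 3.89 and 0.830 FPKM in HS2M, HS3M and HS5M. Mup20 was 0.325, 6.55 and 4.24 FPKM in CON and 0.567, 7.05 and 1.04 FPKM in HSD. Mup7 was 0.438, 4.90 and 1.13 FPKM in CON and 0.436, 4.25 and 0.234 FPKM in HSD. CON71M and HS3M were the highest library of their diet in each. Mup14 was 0.0546, 2.20 and 0.518 FPKM in CON and 0.0544, 0.892 and 0.0583 FPKM in HSD. Mup17, at 0.0814, 1.46 and 0.482 FPKM in CON and 0.0810, 0.332 and 0.261 FPKM in HSD, was below the level for testing, with 22 and 8 fragments in all.

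The median of the hepatocyte markers followed the same libraries in muscle, at 0.121% of the CON liver level in CON71M and 0.0828% in HS3M against 0.00356% to 0.0503% in the other 4. Mouse CON71 was the highest for the members among the CON mice in both fat and muscle, whereas HS3 was among the lowest in fat and the highest of HSD in muscle. Of the 4 members tested in muscle, 0 were called and 0 had an unadjusted p under 0.05, beside a call for 0.323% of 10834 genes (35 genes, 11 higher and 24 lower in HSD, against 13 and 15 with median-ratio scaling, and 54 with the replicate number as a block). None of the 4 had every HSD library below (15.6% of genes) or above (6.72%) every CON library. The log2 fold change was −0.58 for Mup3 (SE 0.74, limma adjusted p = 0.74), −0.45 for Mup7 (SE 0.74, adjusted p = 0.812), −0.61 for Mup14 (SE 0.54, adjusted p = 0.606) and −0.38 for Mup20 (SE 0.84, adjusted p = 0.859). Without CON71M, those of Mup3, Mup7 and Mup20 turned to 0.15, 0.26 and 0.23.

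The genes whose level followed the members most closely were found by Pearson's r with the mean log2(FPKM + 0.5) of the 5 members. This is a description over the 6 libraries of a tissue, which differ in diet and depth. In liver, out of 10317 genes, these were Atp9a (0.998), 2010315B03Rik (0.998), Thnsl2 (0.998), Ndufs8 (0.994) and Taldo1 (0.993), all of them lowest in CON14L and next lowest in HS5L. Alb ranked 284th there (r = 0.935). In eWAT, out of 13740 genes, they were Sult2a8 (0.999), Ndufaf7 (0.998), F10, which encodes coagulation factor X (0.996), Ahsg, which encodes the plasma protein fetuin-A (0.995), and Pik3r1 (0.995), and Alb ranked 8th (r = 0.995). Ahsg, for example, was 7.49, 10.4 and 3.86 FPKM in CON16W, CON71W and CON72W and 0.400, 0.148 and 0.313 FPKM in HS2W, HS3W and HS5W. The members were chosen on the diet contrast in eWAT, so genes that separate the diets there rank high. Nothing is read from the eWAT ranking.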

How the data were processed

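RNA of liver, eWAT and quadriceps muscle was measured in 18 libraries, 3 CON and 3 HSD for each tissue. Per the study's methods, the authors used cutadapt for trimming, hisat2 for alignment to mm10 and cuffdiff with an Ensembl annotation for gene-level FPKM; the submitters' processing notes name HISAT2 and HTSeq 0.9.1. The deposited FPKM were used as they are. How reads that match several genes were assigned is not given in the sources used here. At exon lengths of GENCODE M21, values of 18359 of 18822 genes above 0, and of all 22 Mup genes, were whole numbers of fragments within 0.05, which gave the fragments and totals per library (7628071 to 16637489). A whole-number value says nothing of reads shared between copies.

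Groups came from the labels. CON and HSD were compared within a tissue by limma 3.58.1 (R 4.3.3) on log2(FPKM + 0.5) over genes whose FPKM averaged 0.5 or more, with a variance trend and Benjamini-Hochberg adjustment over all tested genes. Ratios between members were compared by exact 2-sided permutation tests, which took the libraries as independent. Intervals are exact at 95% confidence. Libraries of a group are different mice by their codes, but how the mice were grouped in cages is not given. Codes were taken to mark the same mouse in different tissues. The limma step was tested on simulated data. Other steps used Python 3.11.15 (matplotlib 3.10.9, scipy 1.17.1, pandas 2.3.3, numpy 2.4.6).

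Members and lists were chosen with earlier results of these data known. Genes named are the members, the other Mup genes, Zhx2, Ghr, Stat5a, Stat5b, Igf1, Socs2 and Cish, the list genes that were called or, where none was, the 2 highest and 2 lowest log2 fold changes of a list in liver, the 5 genes most like the members in liver and in eWAT, and the highest gene of each list of another tissue in eWAT. Lists of which few genes reach liver are given by counts. Alternatives were pseudocounts of 0.1 and 1, other filters, median-ratio scaling, mitochondrial or Mup genes left out, arrayWeights, voom on the recovered fragments, the study's libraries, a replicate block and each library left out.

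CON and HSD libraries share replicate numbers only. The deviations of same-numbered libraries from their group means correlated across genes at 0.383, 0.177 and 0.184 in muscle, so the value with the block is given there, at −0.473, 0.395 and −0.213 in liver and at −0.197, 0.0608 and 0.414 in eWAT.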

Additional observations from a re-analysis of the deposited data

How the results depend on the processing

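No member was called in liver or muscle under any alternative, except Mup17 with arrayWeights in liver (log2 fold change −1.646, limma adjusted p = 4.06e-05), where 1 member was called. That weighting did not converge in liver and rests mainly on HS2L and CON72L. Genes called in liver went from 0 to 926 with it and to 35 with the study's libraries alone, and to 0 to 1 with a library left out. In eWAT they went from 0 (2298 at an unadjusted p under 0.05 in limma) to 220 with arrayWeights and to 0 to 160 with a library left out, 160 without HS3W. In muscle they went from 35 to 7 with no filter, 54 with the replicate block, 66 with voom and 10 to 61 with a library left out (10 without CON72M, 61 without HS2M). The replicate block changed no other call and left 0 called in liver and eWAT. Where the values do not show the cause, it was not tested.

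In liver, Mup14 turned to −0.1602 without mitochondrially encoded genes and −0.08963 with arrayWeights, and Mup20 to −0.1189 without mitochondrially encoded genes. With a library left out, liver log2 fold changes ran from −0.08705 to 0.8264 for Mup3, −0.4585 to 1.315 for Mup7, −0.4309 to 0.7783 for Mup14 and −0.4742 to 0.6951 for Mup20, and muscle ones from −1.526 to 0.1505 for Mup3, −1.285 to 0.2646 for Mup7 and −1.319 to 0.2281 for Mup20. In eWAT, all settings kept the members lower in HSD, with log2 differences from −5.64 (Mup7, voom) to −2.79 (Mup17, pseudocount of 1).

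Non-overlapping ratios between CON eWAT and CON liver fell from 8 to 4 with all 6 livers (smallest adjusted p = 0.05952). There, the differences of Mup17 to Mup3 and Mup17 to Mup20 turned to 0.6684 and 0.3213, and that of Mup14 to Mup7 ran from −0.3036 to 0.4558 with a library left out. The eWAT level was 0.538% of liver, 0.419% without CON71W, 0.357% without mitochondrially encoded genes, and 0.2925% with the liver of the same mouse as base, which also leaves out CON71W. Few fragments in HSD fat and muscle, and shared reads of near-identical copies, limit these values.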
